A study of Drosophila melanogaster with 4 samples.

Results

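The Hox complexes of Drosophila melanogaster lie on the right arm of chromosome 3 (3R), and the sequence described here is the 400 kb around each of them on FlyBase release 5, 3R:2450001-2850000 for the Antennapedia complex and 3R:12450001-12850000 for the bithorax complex. The spans were cut into 800 consecutive windows of 1 kb, 400 in each complex, out of 24305 windows compared in all. The other 23505 are the complete 1 kb windows of 3R from 3000001 to 26905053 outside both spans, here called the rest of 3R. The rule for the spans uses positions and no measured value, but the spans were chosen with earlier results of these data known.

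HP2 was mapped by chromatin immunoprecipitation with sequencing (ChIP-seq) in nuclei of Oregon-R larvae at the third instar, a wild-type strain with no transgene or treatment named in the labels, using the antibody Ab2-90. There were 2 ChIP libraries, replicates 1 and 2, and 2 input libraries, each of which served as the input of the ChIP library with its number. Nuclei came from larval tissue as harvested, so a cluster does not show in which cells HP2 was bound. The labels do not say whether separate larval collections were used for the replicates, whose spread may thus be technical.

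HP2 is encoded by Su(var)2-HP2. It is a large partner of HP1a, the main structural protein of fly heterochromatin, and is best known from pericentric heterochromatin and chromosome 4. The Hox genes encode homeodomain transcription factors that set segment identity along the body axis. Their complexes are textbook targets of a different repressive system, the Polycomb group, which keeps each Hox gene silent in the segments where it is not used and marks such chromatin by methylation of histone H3 at lysine 27. The cover by HP2 in these spans therefore describes how a protein of the HP1 system is distributed in and around complexes known mainly for Polycomb repression. Neither Polycomb proteins nor this histone mark were measured here, so which parts of the spans carry them is not known.

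In the RefSeq annotation of assembly Release 6, the listed genes of the Antennapedia complex follow each other in the order lab, pb, zen2, zen, bcd, Ama, Dfd, Scr, ftz and Antp as positions on 3R increase. Of these, lab, pb, Dfd, Scr and Antp are homeotic genes of the head and thorax, bcd provides the anterior morphogen of the egg, zen acts in dorsal patterning, ftz is a pair-rule gene and Ama encodes a cell adhesion protein. The bithorax complex follows the order Ubx, abd-A and Abd-B, which specify the posterior thorax and the abdomen. All 10 and 3 listed genes were found in the annotation. Because that assembly is not the build of the cluster lists, it was used for names and order only, and no cluster below is assigned to a gene.

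Both complexes were sparsely covered by HP2, the bithorax complex most. Clusters, the enriched regions deposited by the authors, covered 3.63% of the Antennapedia complex in replicate 1 and 5.27% in replicate 2. In the bithorax complex they covered 1.64% and 3.43%. In the rest of 3R the cover was 4.49% and 7.84%. Both complexes thus lay below the rest of the arm within each replicate. The level differed between the lists, with 1.45 times as much cover in replicate 2 as in replicate 1 in the Antennapedia complex, 2.09 times in the bithorax complex and 1.75 times in the rest of 3R.

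The ratio of cover to that of the rest of 3R was therefore taken within each replicate. For the bithorax complex it was 0.37 in replicate 1 and 0.44 in replicate 2, a mean of 0.402 ± 0.051 (SD, n = 2). For the Antennapedia complex it was 0.81 and 0.67, a mean of 0.740 ± 0.097 (SD, n = 2). Both means lay below 1. The SD measures the spread between the 2 ChIP libraries and not how far spans of 400 kb vary along the arm, which is described below. With 2 ChIP libraries an exact two-sided sign-flip permutation test cannot go below p = 0.5, and p = 0.5 was obtained for each complex, so neither difference is established by a test.

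**Figure D1:**
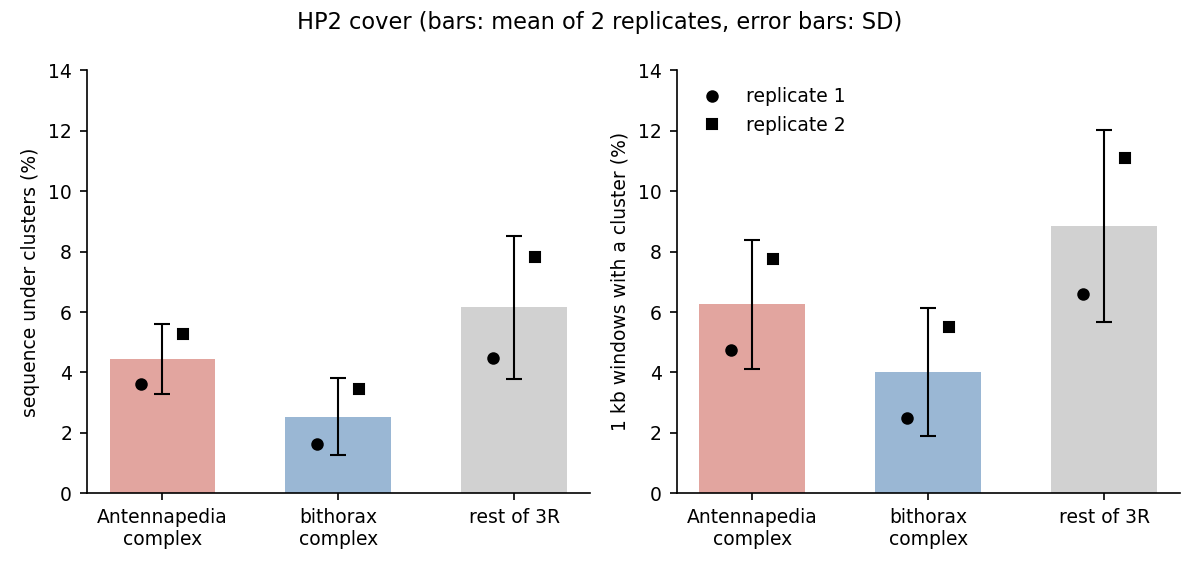
Share of sequence under HP2 clusters (left, %) and share of 1 kb windows with at least 1 bp under a cluster (right, %) in the Antennapedia complex, the bithorax complex and the rest of 3R. Bars are means of 2 replicates, error bars are SD, circles are replicate 1 and squares replicate 2; within each replicate the bithorax complex is lowest, the Antennapedia complex next and the rest of 3R highest.

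The same order was seen when windows were counted. At least 1 bp was covered in 19 of 400 windows of the Antennapedia complex in replicate 1, or 4.75%, and in 10 of 400 windows of the bithorax complex, or 2.50%, where the share in the rest of 3R was 6.61%. In replicate 2 the counts were 31 windows, or 7.75%, and 22 windows, or 5.50%, where the rest of 3R had 11.1%. Relative to the rest of 3R this was 0.708 ± 0.015 in the Antennapedia complex and 0.437 ± 0.082 in the bithorax complex (SD, n = 2; exact sign-flip p = 0.5 for each). Windows covered from end to end were few, 7 and 10 in the Antennapedia complex in replicates 1 and 2, and 2 and 7 in the bithorax complex.

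In the combined list, which the authors called for the replicate set as a whole, the order of the complexes was the other way round. Its clusters covered 8.63% of the Antennapedia complex, 9.75% of the bithorax complex and 16.1% of the rest of 3R. Of the windows, 13.3%, 15.5% and 22.8% were occupied in that order. The bithorax complex was thus the less covered of the 2 in each replicate but not in the combined list, whereas both complexes were below the rest of 3R in all 3 lists. The ratio of the Antennapedia to the bithorax complex was 2.21 in replicate 1, 1.53 in replicate 2 (mean 1.87 ± 0.48, SD, n = 2; exact sign-flip p = 0.5) and 0.89 in the combined list.

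The low cover of the bithorax complex came with both fewer and narrower clusters. It held 4 clusters in replicate 1 and 8 in replicate 2, or 10 and 20 per Mb, where the rest of 3R had 22.3 and 35.0 per Mb. Their mean width was 1640 bp and 1717 bp, against 2017 bp and 2244 bp in the rest of 3R. The Antennapedia complex held 7 clusters in replicate 1 and 11 in replicate 2, or 17.5 and 27.5 per Mb, which is 0.79 times the density of the rest of 3R in each replicate. Its mean width was 2074 bp in replicate 1 and 1915 bp in replicate 2, above that of the rest of 3R in replicate 1 and below it in replicate 2. The replicate 1 mean includes 1 cluster of 3769 bp. By median its clusters had 1859 bp against 1911 bp in the rest of 3R in replicate 1. In replicate 2 the medians were 1987 bp and 2003.5 bp.

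The widest Hox cluster was 3769 bp in replicate 1, 2874 bp in replicate 2 and 4297 bp in the combined list, all in the Antennapedia complex. In the rest of 3R, 13 of 523 clusters (2.49%) were wider than this in replicate 1. In replicate 2 it was 145 of 822 (17.6%), and in the combined list 106 of 1884 (5.63%). The widest there measured 7203 bp, 9588 bp and 12309 bp. The limit is the widest Hox cluster itself, so no Hox cluster could pass it and these counts only place it on the arm. Clusters under 2 kb made up 10 of the 11 Hox clusters in replicate 1, or 90.9%, and 56.4% of those in the rest of 3R. In replicate 2 they made up 13 of 19, or 68.4%, and 49.6%. The limit of 2 kb was chosen after the data were seen.

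How unusual such cover is along the arm was described with 57 spans of 400 kb, laid end to end from 3000001 to 26600000. Spans touching the bithorax complex were left out, so none lay between 12200000 and 13000001. Parts of the sides of that complex are therefore not among them. The bithorax complex was above 5 of the 57 spans in replicate 1 and above 8 in replicate 2, and 5 spans had lower cover than it in both replicates. The Antennapedia complex was above 24 and 19 spans, and 16 lay below it in both. Cover of the 57 spans ranged from 0% to 10.1% in replicate 1, with a median of 3.85%, and from 1.84% to 19.0% in replicate 2, with a median of 7.08%. In the replicates the bithorax complex therefore stood near the low end of the arm without being its lowest point, and the Antennapedia complex was within the lower to middle part of the range. In the combined list the placing was the other way round, with 12 of the 57 spans below the bithorax complex and 8 below the Antennapedia complex.

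**Figure D2:**
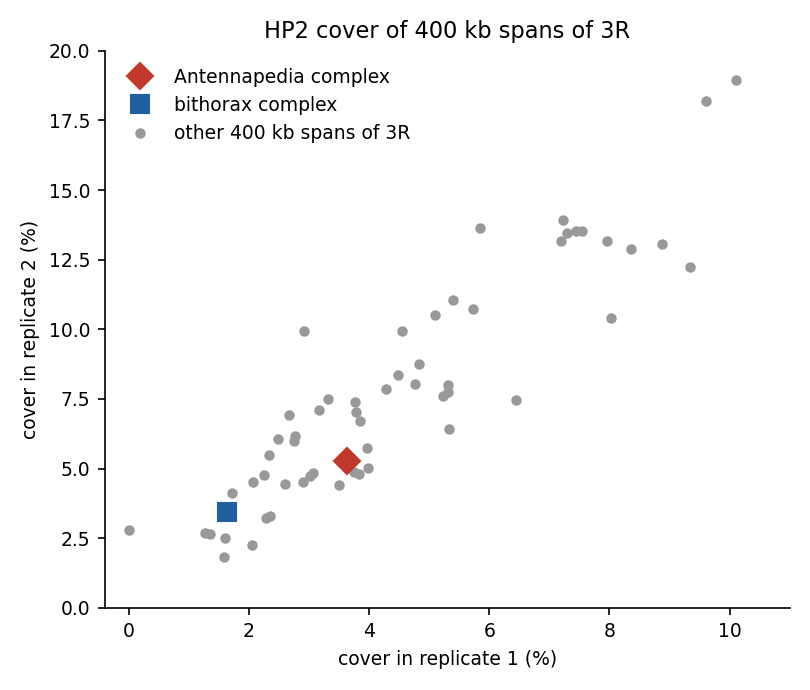
HP2 cover of 400 kb spans of 3R in replicate 1 (x axis, %) and replicate 2 (y axis, %), with the Antennapedia complex as a diamond, the bithorax complex as a square and the 57 other spans as grey circles. The bithorax complex, at 1.64% and 3.43%, lies among the least covered spans, and 5 of them lie below it in both replicates.

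The surroundings of the complexes differed. The 400 kb on either side of the bithorax complex were covered more densely than the complex itself, to 7.48% and 12.2% in replicates 1 and 2 on the proximal side and to 3.25% and 6.53% on the distal side, against the 1.64% and 3.43% of the complex. The Antennapedia complex, at 3.63% and 5.27%, was closer to its sides in replicate 1, where the proximal side had 3.58% and the distal side 4.09%, than in replicate 2, where both were above it at 6.03% and 7.75%. In the combined list its 8.63% was also below both sides, at 10.6% and 15.5%. Against the windows of the rest of 3R within 1 Mb of each complex, the ratio for the bithorax complex stayed low at 0.37 and 0.47, while that for the Antennapedia complex was 1.26 in replicate 1 and 1.09 in replicate 2. These nearby windows of the Antennapedia complex all lie on its distal side, from 3000001 to 3850000, and were covered to 2.89% and 4.82%. In the combined list the complex was below them, at 8.63% against 10.4%. The lower cover of the Antennapedia complex in the replicates thus holds against the arm as a whole and not against these windows, which begin past its border rather than at it.

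The Antennapedia complex also falls in the centromere-proximal 3 Mb of the assembled arm. Its 3.63% and 5.27% lay below the cover of the remainder of those 3 Mb, which was 6.48% in replicate 1 and 13.6% in replicate 2.

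The Antennapedia complex contained 1 cluster that stood out by its score. The cluster at 3R:2471530-2475826 of the combined list was 4297 bp wide with a score of 1.07, and it was called at 2471549 to 2475317 in replicate 1 with a score of 0.945 and at 2471531 to 2473763 in replicate 2 with a score of 1.62. The score is the authors' value for each region. Its scale is not stated, and it serves here only to rank clusters within a list. By score this cluster ranked 42 of 638 clusters on 3R for replicate 1, 28 of 1032 for replicate 2 and 47 of 2276 for the combined list. Its starts in the replicates differed by 18 bp, whereas its end lay 1554 bp further in replicate 1. It lies in the first 26 kb of the span and is the first cluster inside the proximal border in both replicates.

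The other clusters of the Antennapedia complex found in both replicates scored lower than this one in every list. The cluster at 3R:2717986-2720032 had a combined score of 0.519, with 0.392 in replicate 1 and 0.597 in replicate 2. The cluster at 3R:2484738-2486814 had 0.465, 0.358 and 0.565. In both, replicate 2 ranked the cluster above the middle of the arm and replicate 1 near its bottom, with 66.1% and 61.2% of 3R clusters below them in replicate 2 but 11.3% and 5.33% in replicate 1. In the combined list they ranked high, 255 and 325 of 2276. The clusters at 3R:2732986-2734992 and 3R:2582932-2585852 had combined scores of 0.401 and 0.388, with 73.5% and 68.6% of the combined clusters on 3R below them. The neighbouring clusters at 3R:2645220-2647030 and 3R:2647278-2649238 were weak in all lists, with combined scores of 0.186 and 0.312, replicate 1 scores of 0.340 and 0.372 and replicate 2 scores of 0.201 and 0.320.

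Cluster borders were closely repeated in several places. At 3R:2732986-2734992 the replicates started 5 bp apart and ended at the same base, 2734982. At 3R:2717986-2720032 they differed by 12 bp at the start and 54 bp at the end. Over the 10 pairs of the Hox complexes in which 1 cluster of each replicate overlapped 1 of the other, the median shift was 94 bp at the start and 128 bp at the end, and the median Jaccard index, the shared length over the joint length, was 0.84. The 368 such pairs of the rest of 3R had medians of 208 bp, 184 bp and 0.79. The lowest Jaccard index among the Hox pairs was 0.45, at 3R:2582932-2585852, where replicate 2 started 1505 bp before replicate 1.

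A further 4 clusters of the Antennapedia complex were called in replicate 2 and not in replicate 1. The highest by score was at 3R:2690319-2691874 (0.637), which ranked 301 of 1032 on 3R. Those at 2482619 to 2484671 and 2640761 to 2642445 had scores of 0.501 and 0.498, and the one at 2824192 to 2825544 had 0.323. The last was the only replicate cluster in the distal 100 kb of the span, where replicate 1 had none. Cover of the consecutive 100 kb segments of the span, from proximal to distal, was 5.57%, 4.99%, 3.95% and 0% in replicate 1 and 6.32%, 7.81%, 5.58% and 1.35% in replicate 2, so the last of these 100 kb segments held the least.

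In the bithorax complex 3 clusters were called in both replicates, and these lay near the edges of the span. The first was at 3R:12450562-12452330 in the combined list (score 0.341, with 0.367 in replicate 1 and 0.512 in replicate 2), less than 1 kb inside the proximal border. The other 2 were near the distal border, at 3R:12816104-12818356 (0.330, with 0.512 and 0.431) and 3R:12845124-12847336 (0.406, with 0.554 and 0.489). The border of the span decides whether these belong to the complex. Just outside it the next replicate clusters lay 28.1 kb and 27.0 kb before the proximal border in replicates 1 and 2, with scores of 0.705 and 0.876, and 15.3 kb and 15.2 kb past the distal border, with scores of 0.490 and 0.543.

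The replicate 1 cluster at 3R:12567312-12568753 had the highest bithorax score of its list, 0.655, and ranked 116 of 638 on 3R, yet no replicate 2 cluster overlapped it. Replicate 2 had 5 clusters of its own. These were at 12473338 to 12475759 (score 0.489), 12745839 to 12747244 (0.319), 12757867 to 12759289 (0.541), 12759428 to 12761159 (0.449) and 12821074 to 12822496 (0.452). The pair at 12757867 and 12759428 was separated by less than 1 kb. Cover of its 100 kb segments from proximal to distal was 1.32%, 1.44%, 0% and 3.80% in replicate 1 and 4.11%, 0%, 1.41% and 8.22% in replicate 2.

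**Figure D3:**
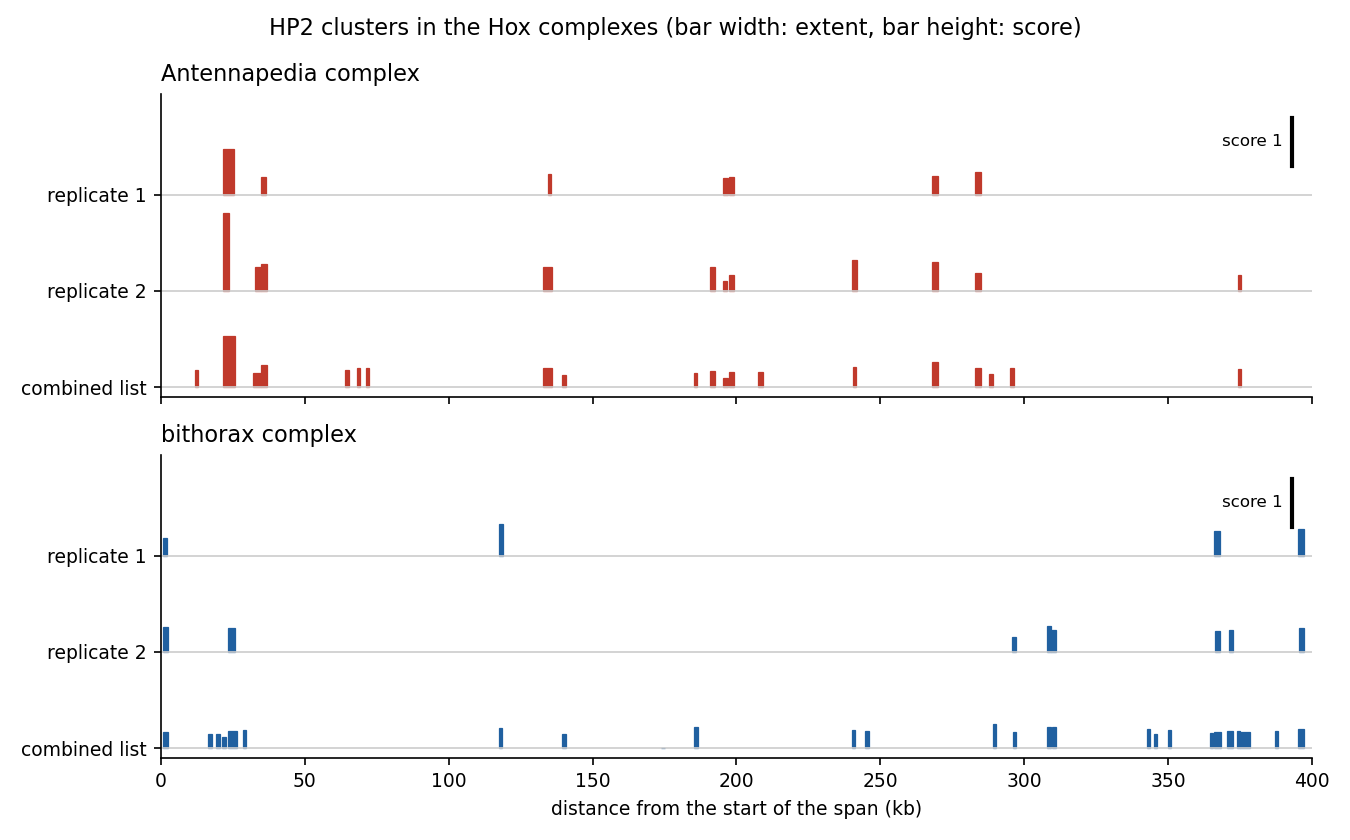
Clusters of replicate 1, replicate 2 and the combined list in the Antennapedia complex (top) and the bithorax complex (bottom), by distance from the start of each span (x axis, kb). Bar width is the extent of a cluster and bar height its score, with a scale bar for a score of 1; a cluster near 22 kb dominates the Antennapedia complex, and a long stretch in the middle of the bithorax complex holds clusters of the combined list only.

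Long stretches of the bithorax complex were free of clusters in the replicates. Replicate 1 had none over the 247 kb from 12568754 to 12816135, and replicate 2 had none over the 270.1 kb from 12475760 to 12745838. The stretch without a cluster in either replicate ran from 12568754 to 12745838, or 177 kb. In the rest of 3R, 12 of 523 free stretches were at least as long as that of replicate 1, 6 of 821 as that of replicate 2 and 17 of 925 as the joint one, and the longest measured 632 kb, 370 kb and 354 kb. Such stretches thus occurred elsewhere on the arm, among its longest. The combined list did hold clusters in the joint stretch, among them its highest-scoring bithorax cluster (0.499), and its longest free stretch in the complex was 87.7 kb, from 12479687 to 12567413. With 50 kb taken off each end of the span, the ratio of cover to the rest of 3R was 0.11 in replicate 1 and 0.19 in replicate 2.

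In the Antennapedia complex the longest stretch free in both replicates was shorter, 96.1 kb from 2486823 to 2582926, and 47 of 925 stretches of the rest of 3R were at least as long. It was followed by 89.2 kb from 2734983 to 2824191. In replicate 1 the longest free stretch, 115 kb from 2734983, was ended by the border of the span, and its full length is larger. Of the 40 bins of 10 kb in each complex, 31 were free of clusters in both replicates in the Antennapedia complex and 31 in the bithorax complex, or 77.5% of each, against 66.6% in the rest of 3R. The bin with the highest mean cover was 2640001 to 2650000 in the Antennapedia complex, covered to 36.9% and 49.4% in replicates 1 and 2. It holds the neighbouring low-scoring clusters at 3R:2645220-2647030 and 3R:2647278-2649238, so high cover here did not go with high scores. That bin was followed there by 2470001 to 2480000 (37.7% and 22.3%), 2480001 to 2490000 (18.0% and 40.9%), 2580001 to 2590000 (13.0% and 28.7%) and 2710001 to 2720000 (19.7% and 20.1%). In the bithorax complex no bin exceeded a mean of 18.6%, which was reached at 12810001 to 12820000 (18.3% and 18.9%) and at 12840001 to 12850000 (19.7% and 17.5%). The next were 12450001 to 12460000 (13.2% and 16.9%), 12470001 to 12480000 (0% and 24.2%) and 12750001 to 12760000 (0% and 20.0%).

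Most replicate 1 clusters of the Hox complexes recurred in replicate 2. Of the 11 replicate 1 clusters, 10 were overlapped by a replicate 2 cluster, or 90.9% (exact 95% binomial interval 58.7 to 99.8%), where the rest of 3R had 78.4% (74.6 to 81.8%). All 7 in the Antennapedia complex and 3 of 4 in the bithorax complex recurred. Of the 19 replicate 2 clusters, 10 were overlapped in replicate 1, or 52.6% (28.9 to 75.6%), where the rest of 3R had 48.7% (45.2 to 52.1%). The intervals cover counting error only and contain the share of the rest of 3R, so no difference was detectable with these numbers of clusters. By window, 25 of 800 were occupied in both replicates, or 3.13%, against 5.20% in the rest of 3R, and 743, or 92.9%, were free in both, against 87.5%.

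The median score of Hox clusters was below that of the rest of 3R in both replicates but not in the combined list. It was 0.430 in replicate 1, against 0.511 in the rest of 3R, and 0.489 in replicate 2, against 0.529. The difference was -0.081 and -0.040, a mean of -0.061 ± 0.029 (SD, n = 2; exact sign-flip p = 0.5). In the combined list the medians were 0.362 and 0.355, and 30.4% of Hox clusters reached the median of the list, as did 30.3% of those in the rest of 3R. In the replicates, 2 of 11 Hox clusters in replicate 1, or 18.2% (2.28 to 51.8%), and 2 of 19 in replicate 2, or 10.5% (1.30 to 33.1%), reached the median of their whole list, where 31.2% and 31.0% of the clusters in the rest of 3R did. In the bithorax complex these were 1 of 4 and 0 of 8. Both intervals for the Hox clusters contain the share of the rest of 3R, so a lower share is not established. Narrow clusters had lower scores, and the Hox clusters included more narrow ones. Hox clusters under 2 kb had medians of 0.411 in replicate 1 and 0.449 in replicate 2, against 0.452 and 0.451 for those of the rest of 3R, so the difference was smaller among narrow clusters in both. Among clusters of 2 kb or more, the 6 Hox clusters of replicate 2 had a median of 0.533, against 0.687 in the rest of 3R, a wider gap than over all widths. In replicate 1 the leading cluster, at 0.945, was the only Hox cluster of that width, and the rest of 3R had a median of 0.618. Whether width bears on the score difference was not tested. Within the complexes the order differed between replicates, with medians of 0.392 and 0.498 in the Antennapedia complex and 0.533 and 0.470 in the bithorax complex in replicates 1 and 2. The bithorax median of replicate 1 was thus above the 0.511 of the rest of 3R, with all 4 clusters under 2 kb.

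**Figure D4:**
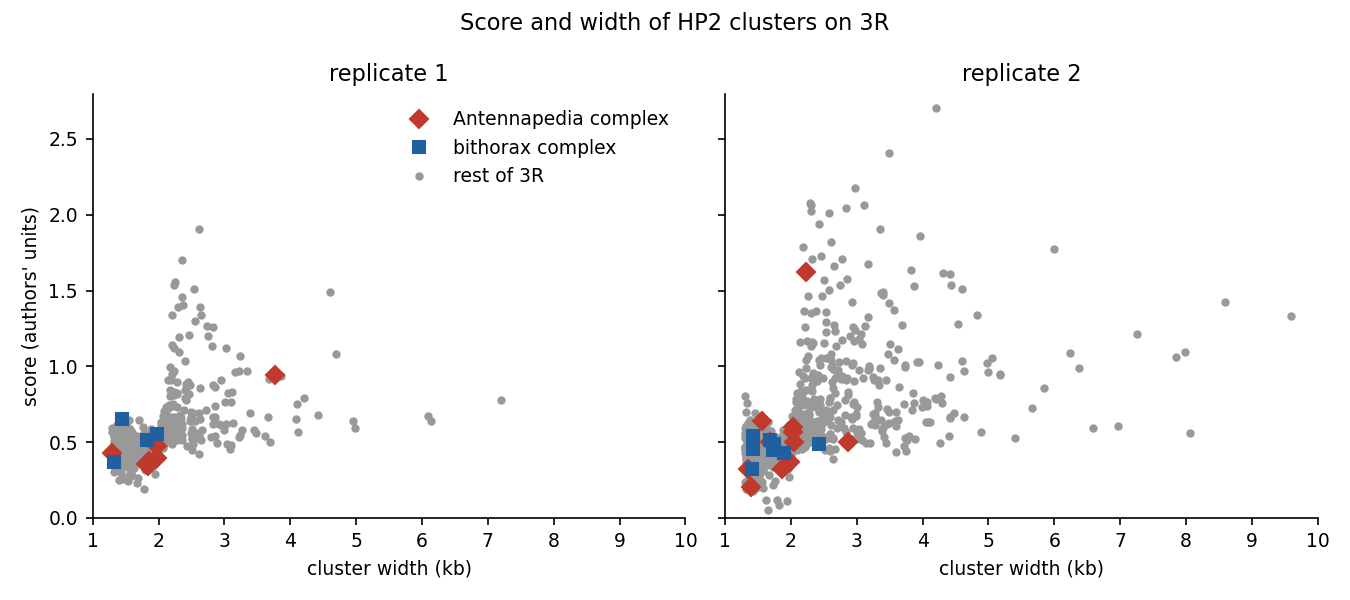
Score (y axis, in the authors' units) against width (x axis, kb) of the clusters of replicate 1 (left) and replicate 2 (right), with Antennapedia complex clusters as diamonds, bithorax complex clusters as squares and the rest of 3R as grey circles. Most Hox clusters lie at narrow widths among the many low-scoring clusters of 3R; the leading Antennapedia cluster has 0.945 in replicate 1 and 1.62 in replicate 2, and the next highest Hox scores are 0.655 and 0.637.

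The combined list added many clusters that neither replicate held, in the complexes as in the rest of 3R. Of its 26 clusters in the bithorax complex, 3 overlapped clusters of both replicates, or 11.5% (2.45 to 30.2%). A further 1 overlapped replicate 1 alone, 5 replicate 2 alone and 17 neither, or 65.4%. Of the 20 clusters in the Antennapedia complex, 7 overlapped both, or 35.0% (15.4 to 59.2%), 4 replicate 2 alone and 9 neither, or 45.0%. In the rest of 3R the shares were 20.5% for both and 52.9% for neither. Over the 2 complexes together the share for neither was 26 of 46, or 56.5%. Both intervals are for the share found in both replicates, and they contain that of the rest of 3R. No interval was computed for the share found in neither, so a difference in it is not established.

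The clusters found in neither replicate were narrow. Their median width was 1179 bp in the Antennapedia complex and 1163 bp in the bithorax complex, against 1231 bp in the rest of 3R. No cluster of either replicate list, on any chromosome, was narrower than 1301 bp, while the combined list reached down to 1001 bp. Of the clusters found in neither replicate, 7 of 9 in the Antennapedia complex and 11 of 17 in the bithorax complex were narrower than 1301 bp, as were 57.6% in the rest of 3R. Summed widths of the combined clusters with a counterpart in a replicate came to 23.6 kb in the Antennapedia complex and 16.3 kb in the bithorax complex, and those without one to 10.9 kb and 22.7 kb. In the rest of 3R the sums were 2438 kb with a counterpart and 1350 kb without one.

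By score, the leading clusters found in neither replicate were 3R:12739130-12740152 (0.499), 3R:12635162-12636710 (0.449) and 3R:12792640-12793694 (0.406) in the bithorax complex, and 3R:2521220-2522436 (0.397), 3R:2745272-2746380 (0.392) and 3R:2518116-2519294 (0.386) in the Antennapedia complex. The first of these scored higher than any bithorax cluster called in both replicates. The widest combined cluster of the bithorax complex, 3R:12825202-12828426 (3225 bp, score 0.331), also had no counterpart in a replicate, and the next, 3R:12473326-12476420 (3095 bp, 0.367), had one in replicate 2 only. In the Antennapedia complex the widest after the leading cluster were 3R:2582932-2585852 (2921 bp), present in both replicates, and 3R:2482128-2484634 (2507 bp), present in replicate 2 only. The cluster at 3R:12623640-12625324 in the bithorax complex, chosen after its value was seen, had a score of 0.00282, the lowest of all 12660 clusters in the combined list, and overlapped no replicate cluster.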

How the data were processed

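The 3 cluster lists were deposited by the authors as regions of significant enrichment with a start, an end and a score for each, 1 list for each ChIP replicate and 1 for the replicate set. Reads were aligned with Bowtie 0.12.7, per the submitters' processing notes. Per the file headers, the build is FlyBase release 5, and positions are printed 1-based. How regions were called, with what threshold and on what scale the score was set is not stated. The lists held 4092, 7017 and 12660 clusters, of which 638, 1032 and 2276 were on 3R. They hold no read counts, so the depth is unknown.

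Cover was the share of each complete 1 kb window under clusters, and clusters were assigned to a span by their midpoint. Overlap meant at least 1 bp. Intervals are exact (Clopper-Pearson) 95% binomial intervals. Python 3.11.15, numpy 2.4.6 and scipy 1.17.1 were used, and cover and overlap were tested on simulated data. The spans, the clusters to be named (in each complex the 6 leading combined clusters found in both replicates, the 3 widest and the 3 leading ones found in neither), the 5 leading bins and the alternatives were chosen with earlier results of these data known. Replicate clusters were described in full, which goes beyond that rule. No sequence is printed, since no genome of the build of the files was used here.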

Additional observations from a re-analysis of the deposited data

How the results depend on the processing

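Relative to the rest of 3R, cover of the bithorax complex stayed below 1 under every alternative run. It was 0.365 to 0.438 when either replicate was left out, 0.102 in the higher-scoring 50% of each list (0 in replicate 2), 0.151 with the span shortened by 50 kb at each end and 0.606 in the combined list. Cover of the Antennapedia complex was 0.672 to 0.809 when either replicate was left out, 0.409 in the higher-scoring 50%, 0.617 with the shortened span, 0.536 in the combined list and 0.590 without its widest cluster, but 1.17 against the windows within 1 Mb, where the direction reversed in the replicates; in the combined list the complex had 8.63% and these windows 10.4%. The higher-scoring 50% left few Hox clusters. These were 1 in replicate 1 and 2 in replicate 2 in the Antennapedia complex, and 1 and 0 in the bithorax complex. Merging clusters within 1 kb moved the cover ratio of neither complex by more than the SD. The ratio of the Antennapedia to the bithorax complex was 1.53 to 2.21 when either replicate was left out and 4.57 with shortened spans, and it reversed to 0.885 in the combined list. In the higher-scoring 50% it could not be computed, because replicate 2 had no such cluster in the bithorax complex. The ratio of occupied windows in the Antennapedia complex was 0.764 with windows at least 50% covered and 0.791 with 5 kb windows, and 0.697 to 0.719 when either replicate was left out. That of the bithorax complex was 0.379 to 0.495 when either replicate was left out. The share of Hox clusters of replicate 1 that recurred was 50.0% in the higher-scoring 50%, which left 2 clusters (1 overlapped). Its exact binomial interval was 1.26 to 98.7%. Under the same limit, 143 of 163 clusters of the rest of 3R recurred, or 87.7%, which lies within that interval. With 2 Hox clusters no difference was detectable. The score difference was -0.081 to -0.040 when either replicate was left out. The cause of these shifts was not tested. The combined list and the cover without the widest cluster were added after seeing the data. No paired analysis was possible because the input libraries have no values of their own here, so that only 1 group, the ChIP libraries, was measured. With 11 and 19 Hox clusters, a single cluster weighs heavily in every value.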
